A study of Mus musculus with 16 samples.

Results

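The immunoglobulin V segments described here are the genes whose symbol begins with Ighv, Igkv or Iglv and a digit, which is the rule by which they were chosen. In the GENCODE vM21 annotation of the mouse build GRCm38, 348 of the 47311 genes in the deposited tables met this rule, with 185 in the heavy chain locus Igh on chromosome 12, 160 in the kappa light chain locus Igk on chromosome 6 and 3 in the lambda light chain locus Igl on chromosome 16. The annotation classes 216 of them as functional V genes (113 Igh, 100 Igk and 3 Igl), 130 as pseudogenes and 2 as a further V-like class. Each segment's level is the sum of the estimated reads of its transcripts.

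The reads came from bulk RNA of 16 mammary tumours of female C57BL/6J mice. E0771-luciferase cells, a mouse mammary cancer line carrying a luciferase reporter, had been placed in mammary gland 4 in an orthotopic transplant of 250000 cells per mouse in matrigel. All mice ate a high-fat diet (60% of kcal as fat) between week 8 and week 26 of life. From day 3 after the transplant until day 21 they were given 200 ug of antibody every 3 days into the peritoneum, which was anti-PD-1 in 8 mice and IgG2a, the isotype control, in 8 mice. The labels give each tumour its own animal number, so the replicates are separate animals. The line is transplanted into a fully immune host of the same strain, and the tissue taken was whole tumour, so B cells and plasma cells of the mouse are among the cells sampled. The tables held 59036535 to 82591064 estimated reads per tumour. Across 13538 genes, 3 tumours stood apart from the rest. They were IgG2a replicate 7, IgG2a replicate 3 and anti-PD-1 replicate 6, whose mean Pearson correlations with the other tumours were 0.762, 0.874 and 0.913, against 0.949 to 0.960 for the other 13.

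An antibody chain is made from a gene assembled in each developing B cell, which joins a single V segment to D and J segments in the heavy chain or to a J segment in a light chain. All descendants of that cell carry the same joined gene, so the V segments present in RNA act as a label of B cell clones, and a plasma cell, which secretes antibody, carries far more of this RNA than a resting B cell. A tissue with many unrelated B cells shows many segments, not necessarily at similar levels, whereas expansion of a clone raises a single heavy and a single light chain segment.

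The V exons of the 5 segments on which most of the results turn are shown first, because they are the germline sequences that the reads were counted against. They are given on the coding strand from GENCODE vM21 transcripts, up to the last 300 bases of the exon. Ighv1-47 (chr12:114991108-114991407, minus strand) and Igkv1-110 (chr6:68270968-68271267, plus strand) led IgG2a replicate 7. Ighv11-2 (chr12:114048241-114048540, minus strand) and Igkv14-126 (chr6:67896345-67896642, plus strand) led IgG2a replicate 3 by reads. Igkv3-2 (chr6:70698768-70699067, plus strand) was detected in the most tumours. Capitals mark the 9 bases that match TANTNNTGN, the codons of the conserved tyrosine, an aromatic residue and the cysteine at the edge of the region where V joins D or J.
Ighv1-47: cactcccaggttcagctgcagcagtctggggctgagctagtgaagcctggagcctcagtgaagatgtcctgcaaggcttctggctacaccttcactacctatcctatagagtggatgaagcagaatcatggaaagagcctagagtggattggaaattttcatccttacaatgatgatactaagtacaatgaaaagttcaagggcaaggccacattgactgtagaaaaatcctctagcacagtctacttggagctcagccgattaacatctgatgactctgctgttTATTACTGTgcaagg
Igkv1-110: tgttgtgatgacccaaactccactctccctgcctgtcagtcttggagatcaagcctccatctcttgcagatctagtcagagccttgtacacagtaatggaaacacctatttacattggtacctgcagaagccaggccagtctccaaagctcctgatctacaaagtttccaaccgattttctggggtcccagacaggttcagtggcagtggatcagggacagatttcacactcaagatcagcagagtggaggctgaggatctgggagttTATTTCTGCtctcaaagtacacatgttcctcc
Ighv11-2: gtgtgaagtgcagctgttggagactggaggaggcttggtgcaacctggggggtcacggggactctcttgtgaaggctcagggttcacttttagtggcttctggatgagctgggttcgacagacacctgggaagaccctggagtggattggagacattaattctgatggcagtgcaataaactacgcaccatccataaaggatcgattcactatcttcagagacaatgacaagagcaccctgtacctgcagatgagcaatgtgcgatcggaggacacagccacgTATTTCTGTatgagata
Igkv14-126: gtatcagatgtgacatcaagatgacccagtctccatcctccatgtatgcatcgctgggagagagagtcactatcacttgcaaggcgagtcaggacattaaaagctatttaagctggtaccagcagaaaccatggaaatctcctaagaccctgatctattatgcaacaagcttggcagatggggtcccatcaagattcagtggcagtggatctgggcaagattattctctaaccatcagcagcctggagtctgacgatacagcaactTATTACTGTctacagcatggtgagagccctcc
Igkv3-2: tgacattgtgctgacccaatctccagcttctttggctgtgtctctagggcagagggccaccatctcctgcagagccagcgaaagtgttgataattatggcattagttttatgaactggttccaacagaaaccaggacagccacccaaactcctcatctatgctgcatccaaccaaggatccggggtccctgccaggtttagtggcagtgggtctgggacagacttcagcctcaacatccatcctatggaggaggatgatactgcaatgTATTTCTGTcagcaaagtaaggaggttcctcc
The marked triplet of codons lay 6 and 8 bases from the end of the exon in the heavy chain segments and 23 bases from the end in the kappa segments. Read in frame on the coding strand within the last 45 bases, the same pattern was found in 207 of the 216 functional V exons (95.8%), whose lengths ran from 293 to 351 bases with a median of 305. Reads were counted on transcripts that include other exons. The 304 transcripts of functional segments were 90 to 501 bases long, and their effective lengths, as deposited, ran from 4.27 to 252 with a median of 103. Shares of reads are therefore not per length, and the authors' TPM, which is per effective length, is given beside the leading shares. Ighv1-47 was 61.6% identical to Ighv11-2 over the aligned bases, and the kappa segments were 65.7 to 68.9% identical to each other. Ighv1-47 had no close copy, its nearest functional neighbours Ighv1-74 and Ighv1-53 being 83.6% identical. Igkv1-110 was 96.8% identical to Igkv1-117 and Ighv11-2 was 98.7% identical to Ighv11-1, so the division of reads within those pairs is less certain. Ighv11-1 was listed at 0 reads in every tumour, and Igkv1-117 held 92 reads in IgG2a replicate 3 and 3 in replicate 7.

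V reads were scarce in nearly all tumours and abundant in 2. The 348 segments drew 15431 reads in the 16 tumours together, of which IgG2a replicate 7 held 11118 and IgG2a replicate 3 held 3037, or 91.7% between them. IgG2a replicate 8 followed with 429 reads. The other 13 tumours shared 847 reads, with 85, 111, 11, 33 and 121 in IgG2a replicates 1, 2, 4, 5 and 6 and 106, 46, 81, 52, 97, 31, 27 and 46 in anti-PD-1 replicates 1 to 8. Every usage value outside IgG2a replicates 3, 7 and 8 therefore rests on a small sample of reads. Among all transcripts with whole values of 1 to 20, even values made up 61.7 to 69.6% per tumour, against 52.7% for V segments (216 of 410). Counting both mates of a pair separately would give more even values, so exact intervals are also quoted with the reads halved where they matter. All intervals cover counting error only.

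**Figure D1:**
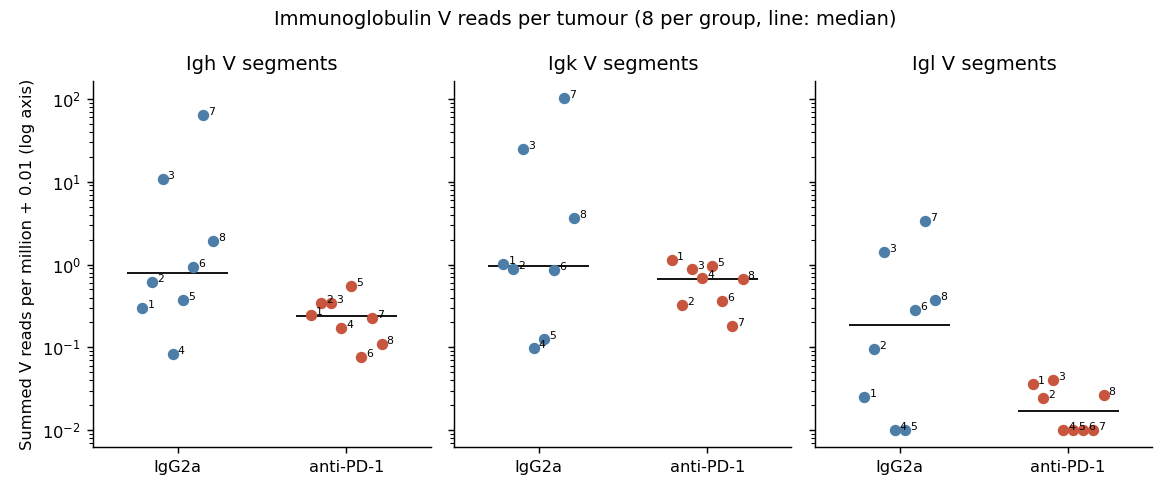
Summed V reads in CPM plus 0.01, on a log axis, for the Igh, Igk and Igl loci in 8 IgG2a and 8 anti-PD-1 tumours, each point a tumour numbered by replicate, with the group median as a line. IgG2a replicates 7, 3 and 8 lie above all others in each locus, and the remaining IgG2a tumours overlap the anti-PD-1 tumours.

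Scaled to a common library total (counts per 1e6 reads, CPM), heavy chain V reads ran from 0.0734 to 64.2 with a median of 0.772 under IgG2a and from 0.0672 to 0.544 CPM with a median of 0.227 under anti-PD-1. Kappa V reads ran from 0.0881 to 103 with a median of 0.941 under IgG2a and from 0.173 to 1.13 with a median of 0.667 CPM under anti-PD-1. Lambda V reads ran from 0 to 3.30 with a median of 0.178 under IgG2a and from 0 to 0.0305 with a median of 0.00722 CPM under anti-PD-1. The groups overlapped in all loci, and none of the anti-PD-1 tumours lay above the IgG2a median for Igh or Igl and 2 did for Igk. On the log2(CPM + 1) scale the mean difference, anti-PD-1 minus IgG2a, was -1.40 ± 0.73 for Igh, -1.40 ± 0.85 for Igk and -0.52 ± 0.27 for Igl (SE, n = 8 each). Without the 3 tumours that stood apart the differences were -0.34, -0.16 and -0.14, and without IgG2a replicates 3, 7 and 8 they were -0.20, 0.07 and -0.08. These sums over the members were planned without a test, and the loci were chosen with earlier results in view. In bulk tissue, fewer B lineage cells and less V RNA per cell cannot be told apart.

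Of the 348 segments, 155 had at least 1 read in some tumour and 193 had none. Detection followed the annotation closely: 152 of the 216 functional segments (70.4%) had a read, against 3 of the 132 segments of other classes. Those 3 were Ighv1-25, Ighv1-60 and Igkv4-56, named here after their values were seen, and they held 13 reads, of which Ighv1-60 had 8 in anti-PD-1 replicate 5. By locus, 75 of 113 functional Igh segments (66.4%), 74 of 100 Igk segments (74.0%) and all 3 Igl segments had a read. At a minimum of 10 reads in a tumour, 27 Igh, 40 Igk and 3 Igl segments were detected, 70 in all, each of them functional.

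Few segments were detected in many tumours, but the scarcity of V reads limits how often any segment could be detected. Most tumours held too few V reads for more than a few segments to reach 10 reads. These counts therefore cannot show whether the animals used the same or different segments. With the minimum of 10 reads, 43 segments were detected in 1 tumour only, 19 in 2, 7 in 3 to 5, and Igkv3-2 alone in 6. Counting any read, 56 segments were seen in 1 tumour only, 27 were seen in 6 or more, the most widespread again being Igkv3-2 with 11 of 16 tumours, and none was seen in all 16. Ighv1-26 was the most widespread heavy chain segment, with reads in 10 tumours. A segment with any read was found in IgG2a tumours only in 72 cases, in anti-PD-1 tumours only in 7 cases and in both groups in 76 cases. That imbalance is a count of unequal samples, since the IgG2a tumours held far more V reads.

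**Figure D2:**
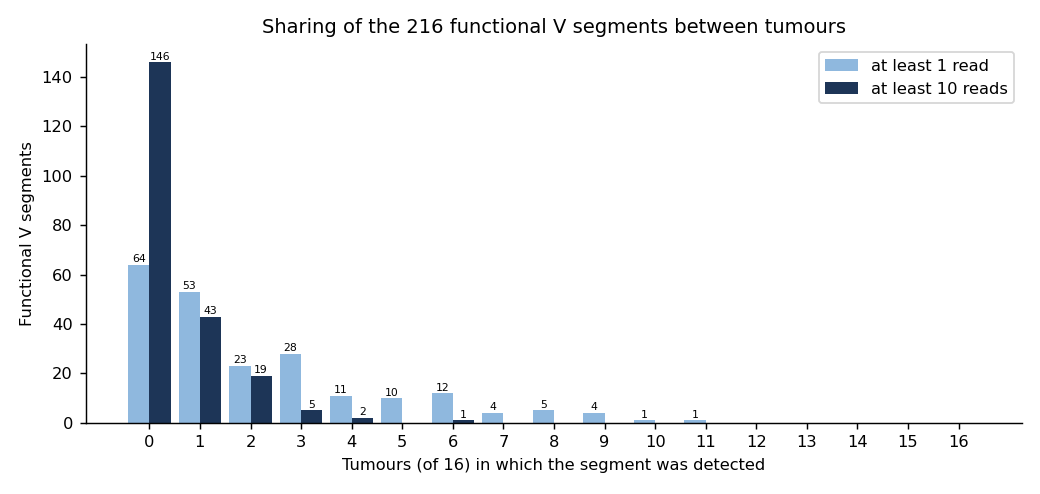
Number of functional V segments (the 216 of the annotation's V gene class) by the number of tumours, of 16, in which each was detected, at a minimum of 1 read (light bars) and of 10 reads (dark bars). The bars thin out to the right: 53 segments had a read in 1 tumour only, and none was detected in more than 11. Most tumours held few V reads, which limits the number of tumours in which a segment could be detected.

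IgG2a replicate 7 was led by a single heavy and a single kappa segment. Ighv1-47 held 3030 of its 4181 heavy chain V reads, or 72.5% (exact Clopper-Pearson 95% interval 71.1 to 73.8%, and 70.5 to 74.4% with the reads halved). This segment was almost private to the tumour, with 1 read in anti-PD-1 replicate 8 and 0 in each of the other 14. In IgG2a replicate 3, a count of 0 among 893 heavy chain reads allows a share of up to 0.336%. Ighv1-53 came second in replicate 7, with 479 reads (11.5%). Igkv1-110 held 4373 of 6722 kappa V reads, or 65.1% (63.9 to 66.2%), followed by Igkv3-2 with 727 reads (10.8%). Per length, in the authors' TPM, Ighv1-47 held 78.1% and Igkv1-110 57.0% of replicate 7. Igkv1-110 was not private, as IgG2a replicates 3 and 8 held 90 and 14 reads of it, replicates 1 and 2 held 2 each, and anti-PD-1 replicates 1, 3, 4 and 8 held 4, 3, 2 and 2.

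The effective number of segments, which is the number of equally used segments that would give the same concentration of reads (inverse Simpson index), was 1.84 for Igh and 2.25 for Igk in replicate 7 (1.60 and 2.78 from TPM). Of its segments, 4 were enough to reach 90% of the heavy chain reads and 5 to reach 90% of the kappa reads, although 23 and 36 segments had a read.

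IgG2a replicate 3 used many segments, none of them dominant. Its leading heavy chain segment, Ighv11-2, held 135 of 893 reads, or 15.1% (12.8 to 17.6%), ahead of Ighv1-11 with 110 reads (12.3%). Its leading kappa segment, Igkv14-126, held 432 of 2029 reads, or 21.3% (19.5 to 23.1%), ahead of Igkv8-16 with 256 reads (12.6%). Per length the order in Igh changed: in the authors' TPM Ighv1-11 led with 14.7% and Ighv11-2 came to 8.69%, while Igkv14-126 still led Igk with 22.4%. Ighv11-2 and Igkv14-126 are known as a recurrent pair in the phosphatidylcholine-binding antibodies of B-1 cells, a self-renewing B cell lineage of the body cavities. Bulk reads do not show which heavy and light chains came from the same cell. Replicate 7 also held both segments, with 89 reads of Ighv11-2 (2.13%) and 124 of Igkv14-126 (1.84%). Elsewhere Ighv11-2 had 1 read, in anti-PD-1 replicate 3, and Igkv14-126 had at most 6, also in anti-PD-1 replicate 3. Replicate 3 had reads in 47 Igh and 57 Igk segments, with effective numbers of 15.3 and 12.3 (16.8 and 12.1 from TPM), and needed 23 and 26 segments to reach 90% of the reads.

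The contrast between these tumours was also seen at equal numbers of reads. In 500 reads drawn from each locus, 43.8 Igh and 49.0 Igk segments were expected in replicate 3, against 14.6 and 15.1 in replicate 7. They are 2 animals of the same group, so this is a difference between 2 tumours and carries no test. IgG2a replicate 8, with 138 Igh and 265 Igk V reads, resembled replicate 3 in spread, with effective numbers of 16.03 and 20.4. Its leading segments were Ighv2-2 with 15.9% (10.3 to 23.1%) and Igkv8-24 with 10.9% (7.45 to 15.3%).

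**Figure D3:**
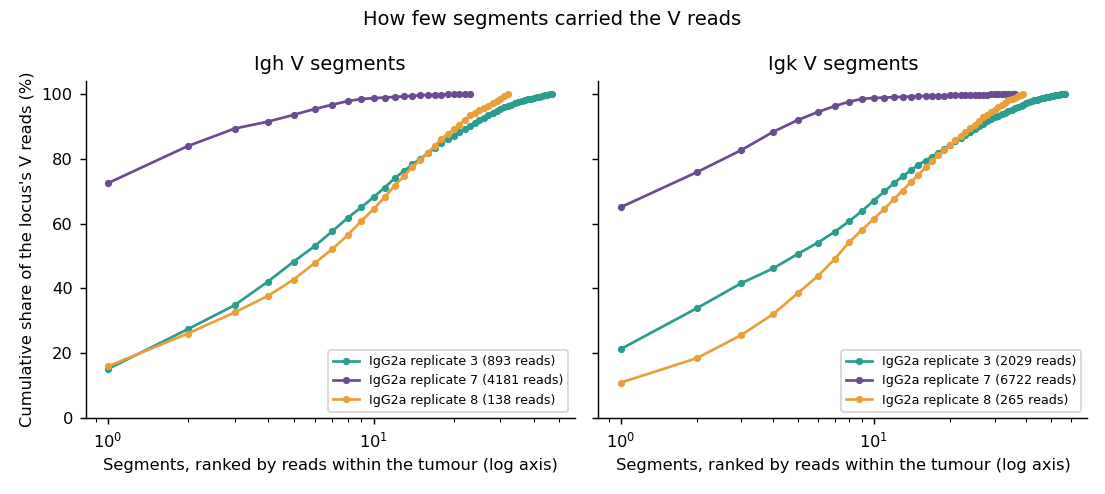
Cumulative share (%) of the V reads of a locus against the number of segments, ranked by reads within the tumour on a log axis, for IgG2a replicates 3, 7 and 8. Replicate 7 starts at 72.5% (Igh) and 65.1% (Igk) with its first segment, while replicates 3 and 8 start between 10.9 and 21.3%.

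Which segments replicates 3 and 7 shared depended on the locus. At 10 reads, 14 segments were detected in both, which is 24.1% of the 58 in replicate 3 and 63.6% of the 22 in replicate 7. In Igh the shared segments were 4 of 21 and of 10, and they held 31.5% of the reads of replicate 3 but 6.39% of those of replicate 7, where Ighv1-47 was not shared. In Igk the shared segments were 8 of 34 and of 10, and they held 51.4 and 89.5% of the reads. The Bray-Curtis distance between the usage profiles, which is 0 for identical shares and 1 for no overlap, was 0.920 for Igh, 0.786 for Igk and 0.137 for Igl.

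**Figure D4:**
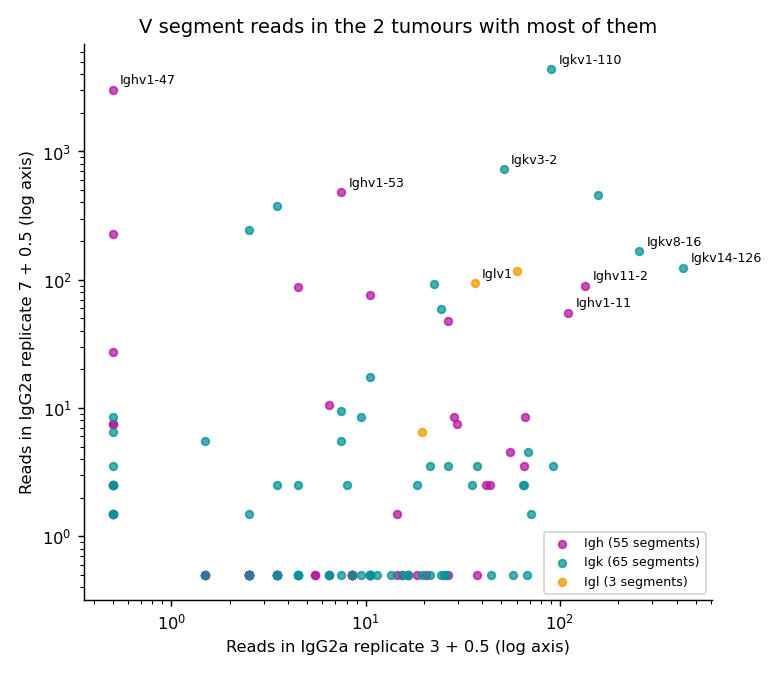
Reads plus 0.5 of each V segment in IgG2a replicate 3 against IgG2a replicate 7, both axes log, coloured by locus, with leading segments named. Ighv1-47 sits on the left edge with 3030 reads in replicate 7 and 0 in replicate 3, whereas Ighv11-2, Ighv1-11, Igkv14-126 and Igkv8-16 were read in both tumours and more in replicate 3.

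Among the 13 tumours other than IgG2a replicates 3, 7 and 8, the leading segment changed from animal to animal. In Igh, 10 of them had a single leader and these were 8 different segments, with no segment leading more than 2 tumours. In Igk, 11 had a single leader and these were 9 different segments, of which Igkv14-111 led 3 tumours. Ighv6-3 led IgG2a replicate 6 with 35 of 55 reads (63.6%, interval 49.6 to 76.2%) and anti-PD-1 replicate 6 with all 5 of its reads (interval 47.8 to 100%). Ighv1-53 led IgG2a replicate 5 with 21 of 25 reads (84.0%, interval 63.9 to 95.5%). Igkv14-111 led IgG2a replicate 6 with 24 of 50 reads (48.0%), IgG2a replicate 1 with 13 of 65 (20%) and anti-PD-1 replicate 2 with 6 of 22 (27.3%). Igkv3-2 led anti-PD-1 replicate 6 with 22 of 26 reads (84.6%, interval 65.1 to 95.6%). A share built on 5 or 26 reads can be high from a few molecules, and the intervals at halved reads reach down to 15.8% for Ighv6-3 and 54.6% for Igkv3-2 in anti-PD-1 replicate 6.

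**Figure D5:**
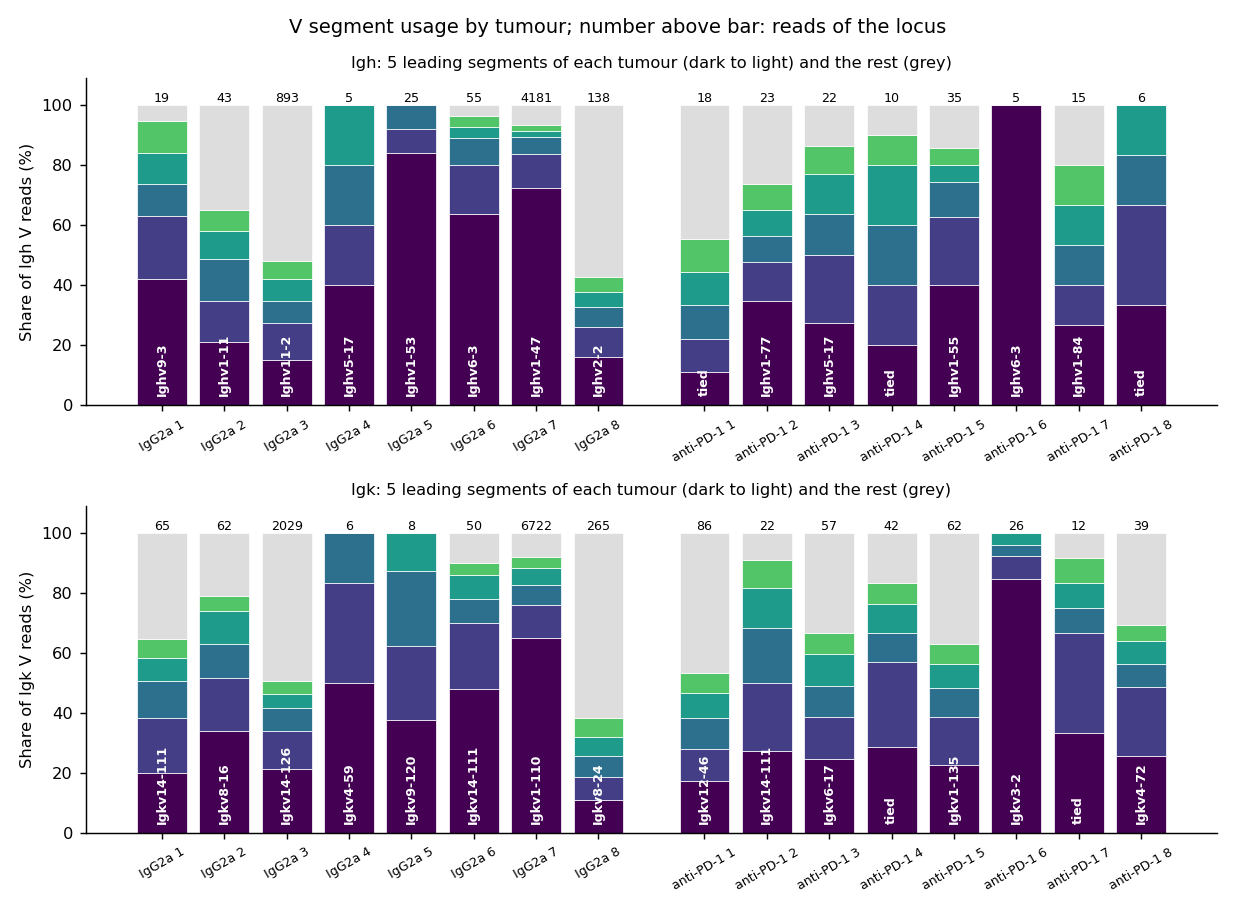
Share (%) of the Igh (upper) and Igk (lower) V reads taken by the 5 leading segments of each tumour, dark to light, with all others in grey, the leading segment named (tied where several were equal) and the number of reads above each bar. High bars at the dark end appear in tumours with many reads (IgG2a replicate 7) and in tumours with very few (anti-PD-1 replicate 6).

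With each tumour weighted equally, Ighv6-3 had the highest mean share of heavy chain V reads at 12.0 ± 28.3% (SD, n = 16), ahead of Ighv1-53 with 11.4 ± 21.5%, Ighv5-17 with 7.40 ± 13.6%, Ighv1-26 with 5.65 ± 6.58%, Ighv1-47 with 5.57 ± 18.3% and Ighv1-64 with 4.43 ± 6.77%. Among kappa segments the order was Igkv3-2 with 12.6 ± 21.1%, Igkv14-111 with 7.62 ± 13.4%, Igkv1-110 with 6.31 ± 15.8%, Igkv4-59 with 5.63 ± 12.4%, Igkv1-135 with 5.53 ± 8.96% and Igkv8-24 with 4.16 ± 8.49%. Every SD exceeded its mean, so neighbours in this order do not differ beyond their spread. The first places rest on anti-PD-1 replicate 6, without which Ighv6-3 was at 6.16% and Ighv1-53 led with 12.2%, and Igkv3-2 was at 7.85%, behind Igkv14-111 with 8.13% (n = 15). Igkv3-2, read in the most tumours, had 11, 51, 11, 727 and 7 reads in IgG2a replicates 2, 3, 6, 7 and 8, and 1, 4, 2, 10, 22 and 9 reads in anti-PD-1 replicates 1, 2, 3, 5, 6 and 8. Igkv1-135 had 157, 4, 460 and 2 reads in IgG2a replicates 3, 6, 7 and 8 and 8, 12 and 14 in anti-PD-1 replicates 3, 4 and 5, leading the last and sharing the lead with Igkv12-44 in anti-PD-1 replicate 4.

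The 3 lambda segments were read in 10 tumours. Iglv1 had 1, 6, 36, 16, 93 and 16 reads in IgG2a replicates 1, 2, 3, 6, 7 and 8 and 1 read each in anti-PD-1 replicates 2 and 3. Iglv2, 97.0% identical to Iglv1, had 60, 116 and 3 reads in IgG2a replicates 3, 7 and 8 and 1 in anti-PD-1 replicate 3. Iglv3 had 19, 6 and 7 reads in IgG2a replicates 3, 7 and 8 and 2 and 1 in anti-PD-1 replicates 1 and 8. Lambda made up 5.36% (4.45 to 6.40%) of the light chain V reads of IgG2a replicate 3, 3.10% (2.70 to 3.53%) of replicate 7 and 8.93% (5.92 to 12.8%) of replicate 8. In IgG2a replicate 6 the share was higher, with 16 lambda beside 50 kappa V reads (24.2%, interval 14.5 to 36.4%), all 16 of them Iglv1. With the reads halved its interval, 11.1 to 42.3%, overlapped the 4.83 to 14.7% of replicate 8.

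V segments of similar sequence are grouped into families, and the families mirrored the leading segments. The Ighv1 family, 46.9% of the functional heavy chain segments, took 88.5% of the heavy chain V reads of IgG2a replicate 7, 52.0% of replicate 3, 40.6% of replicate 8, and 55.1% of the reads of the 14 tumours other than replicates 3 and 7 pooled. The Ighv11 family, with 2 segments, took 15.1% in replicate 3. In Igk, the Igkv1 family took 71.9% of replicate 7, and the Igkv14 and Igkv8 families took 24.8 and 21.0% of replicate 3. The largest kappa family, Igkv4, is 26% of the functional segments and took 0.238% of replicate 7, 13.7% of replicate 3, 27.5% of replicate 8 and 23.6% of the other 14 tumours pooled. Segments were also grouped by position in the locus. Functional Igh segments with a read were 38 of 57 in the part of the locus nearer the J segments and 37 of 56 in the farther part, and in Igk they were 38 of 50 and 36 of 50. By reads, the farther part of Igh, which holds Ighv1-47, took 86.9% in replicate 7, 38.2% in replicate 3 and 43.5% in replicate 8. The farther part of Igk took 79.4, 61.7 and 30.2%.

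The usage of V segments was then compared between treatments, which asks whether PD-1 blockade came with a more or less concentrated set of segments. In all, 8 measures were tested by exact permutation of the tumours between groups, and none passed. The top Igh segment held 11.1 to 100% of the reads, median 30.3%, under anti-PD-1 and 15.1 to 84.0%, median 41.1%, under IgG2a. Its mean was 36.6 ± 27.1% and 44.3 ± 26.6% (SD, n = 8 each, two-sided exact permutation p = 0.580, adjusted p = 0.875 over the 8). The top Igk segment held 17.4 to 84.6%, median 26.5%, under anti-PD-1 and 10.9 to 65.1%, median 35.7%, under IgG2a. Its mean was 33.0 ± 21.4% and 35.8 ± 18.1% (n = 8 each, exact permutation p = 0.785, adjusted p = 0.875). The groups overlapped over nearly their whole range in both loci.

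The effective number of segments was 5.36 ± 2.79 under anti-PD-1 and 6.67 ± 6.04 under IgG2a for Igh (n = 8 each, exact permutation p = 0.586) and 6.48 ± 3.36 and 7.39 ± 6.33 for Igk (n = 8 each, exact permutation p = 0.749), with an adjusted p of 0.875 for both. The count of segments grows with the number of reads, and a share built on few reads can be high. Tumours were therefore also compared at 10 reads. This size was chosen after seeing the data because only 2 tumours, both IgG2a, reached the planned 500. At that size 6.33 ± 1.08 Igh segments were expected under anti-PD-1 (n = 6) and 5.23 ± 2.35 under IgG2a (n = 7, exact permutation p = 0.308, adjusted p = 0.875). For Igk the values were 5.72 ± 1.57 (n = 8) and 6.09 ± 1.78 (n = 6, exact permutation p = 0.686, adjusted p = 0.875). Tumours with fewer than 10 reads in a locus were left out of these values.

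Usage profiles of the same treatment were not found to be closer to each other than those of different treatments. The mean Bray-Curtis distance was 0.872 between groups and 0.895 within groups for Igh (8 tumours in each, one-sided exact permutation p = 0.875) and 0.849 and 0.855 for Igk (p = 0.637 by the same exact permutation test), both with an adjusted p of 0.875. With 5 to 86 reads in a locus of most tumours, small samples of reads alone raise these distances, and the distance that equal usage would give at these depths was not computed.

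No V segment could be tested one by one under the usual filter on low counts. edgeR tested 16154 genes of the series and called 0 of them (0%), with 11.4% at an unadjusted p under 0.05 (7.9% lower under anti-PD-1), and 0 of the 348 V segments had enough reads to be among them. With the filter removed, 155 V segments were fitted and 0 were called, and 86 had an unadjusted p under 0.05, 81 of them lower under anti-PD-1. The background among the 27933 genes then tested was 15.4% in either direction and 11% lower. Without the 3 tumours that stood apart, 28 of 123 V segments had an unadjusted p under 0.05, 23 of them lower, against 13.2% and 6.85% of 27043 genes. The share of V segments with a small unadjusted p was thus 55.5% with all tumours and 22.8% without those 3. These fits rest on genes with reads in few tumours, and no V segment passed the adjusted threshold in them. A segment entered with any read, and with all tumours 72 entered through IgG2a tumours only and 7 through anti-PD-1 tumours only. The direction was thus largely set by entry. The segments are also not separate members, since IgG2a replicates 3 and 7 held 91.7% of the V reads. No conclusion on treatment is drawn from these counts.

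DESeq2 called 1 V segment, Igkv8-16, as lower under anti-PD-1 (adjusted p = 4.06e-11 by DESeq2), among 4 called of 27810 genes (0.0144%). Igkv8-16 had 21, 256 and 167 reads in IgG2a replicates 2, 3 and 7 and 0 in the other 5 IgG2a and all 8 anti-PD-1 tumours. The groups overlapped at 0, edgeR without a filter gave an adjusted p of 0.321 for it, and the call rests on 3 tumours, 2 of which held nearly all V reads of the series. At an unadjusted p under 0.05, DESeq2 had 10 of the 147 V segments to which it gave an adjusted p, all lower, against 6.33% of all genes and 3.57% lower. Segments entered the DESeq2 fit with any read too, so its counts have the same limit.

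The constant genes encode the rest of each antibody chain. Of these, Igkc and Ighm were highest in the same tumours as the V reads, but not every constant gene was. Ighg2c, of IgG2c, was highest in anti-PD-1 replicate 1 at 0.935 CPM, against 0.449 and 0.184 CPM in IgG2a replicates 3 and 7. Igkc, the kappa constant gene, had 176, 96, 7352, 9, 25, 123, 17803 and 558 reads in IgG2a replicates 1 to 8 and 279, 73, 125, 36, 125, 210, 45 and 83 in anti-PD-1 replicates 1 to 8. IgG2a replicates 7 and 3 were again far above the rest, and the other IgG2a tumours spanned the range of the anti-PD-1 tumours. Of 12 constant genes, 4 passed the filter and 0 were called by edgeR. Their log2 fold changes were -4.79 ± 1.36 (SE) for Igkc, -3.32 ± 0.99 for Ighm, -3.10 ± 1.33 for Ighg2b and -1.40 ± 0.93 for Ighd, with edgeR adjusted p of 0.434, 0.434, 0.434 and 0.472. Without the 3 tumours that stood apart they were -0.57 for Igkc, -0.28 for Ighm and 0.12 for Ighg2b, and Ighd was not tested. The sizes depended on the tool: DESeq2 and limma-voom gave -2.95 and -1.49 for Igkc, -1.54 and -1.29 for Ighm, -0.41 and -0.31 for Ighg2b and -1.40 and -0.67 for Ighd. The median of the 4 was -3.21, beside -0.05 over all genes tested.

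The heavy chain class differed between the tumours with most V reads. Ighm, the constant gene of IgM, had 32454 reads in IgG2a replicate 7 and 10369 in replicate 3. Ighg3, of IgG3, had 1166 reads in replicate 3 and 6 in replicate 7, and Igha, of IgA, had 137 and 0. Ighg2b, of IgG2b, had 134 in replicate 3 and 1353 in replicate 7, and Ighg1, of IgG1, had 82 and 281. Kappa V reads were 12.4 to 117% of the Igkc reads across tumours, and 27.6 and 37.8% in replicates 3 and 7. Heavy chain V reads were 0.822 to 12.9% of the Ighm reads, lowest in anti-PD-1 replicates 8 and 6 with 6 and 5 V reads beside 730 and 520 Ighm reads, and highest in IgG2a replicate 7. These are ratios of reads, not per length.

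Genes of B lineage cells other than immunoglobulins did not pass the test either. Of 12 plasma cell genes, 11 were tested and 0 called, 9 with a lower and 2 with a higher estimate, with a median log2 fold change of -0.08. Jchain, which joins IgM and IgA into polymers, was at -4.29 ± 1.32 (SE) and had 1839 reads in IgG2a replicate 7, 1591 in replicate 3 and 0 to 74 elsewhere. Mzb1, a chaperone of antibody assembly, was at -1.53 ± 0.87, Irf4, a transcription factor of plasma cells, at -1.07 ± 0.55 and Fkbp11, a folding enzyme of secretory cells, at 0.59 ± 0.27. The summed level of the 12 plasma cell genes did not follow Jchain. It was 883 CPM in replicate 7 and 935 in replicate 3, the lowest of the 16 tumours. Sdc1, Edem1, Txndc5 and Xbp1 made up most of the sum, with IgG2a means of 386, 287, 238 and 146 CPM. The sum therefore says little about the members at low levels. The other 6 IgG2a tumours had 1076 to 1282 CPM and the anti-PD-1 tumours 938 to 1233. Of the members, Sdc1 (170 and 281 CPM) and Prdm1 (11.1 and 12.7) were lowest in replicates 7 and 3. Mzb1 was highest there, at 1.26 and 1.14 CPM. Without the 3 tumours that stood apart Jchain was at -0.46, Mzb1 at 0.23, Irf4 at -0.16 and Fkbp11 at 0.40, and without IgG2a replicate 7 alone Irf4 was at -0.13. DESeq2 and limma-voom gave -0.38 and -1.77 for Jchain and -0.12 and -0.49 for Irf4. Their edgeR adjusted p with all tumours were 0.434 for Jchain, 0.445 for Mzb1, 0.435 for Irf4 and 0.434 for Fkbp11. Of 12 B cell genes, 10 were tested and 0 called, with a median of -0.29. Their summed level was 21.4 to 35.7 CPM under anti-PD-1 and 27.5 to 52.2 CPM under IgG2a, with replicate 7 at 52.1 and replicate 3 at 27.5 CPM. Pax5, a B cell transcription factor, made up much of these sums with 3.96 to 35.1 CPM across IgG2a tumours, and its lowest value was in replicate 7.

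Of 14 genes of V(D)J joining and antibody diversification, 12 were tested and 0 called, with 7 higher and 5 lower estimates and a median of 0.09. Rag1 and Rag2, the recombinase that cuts at V, D and J segments, were at 0 in all 16 tumours, as were Igll1 and Vpreb2 of the surrogate light chain of precursor B cells. Other members of these lists were not all at 0. Dntt, of the joining list, had 0 reads in IgG2a replicate 7 and 5 to 30 in the other tumours. Vpreb3, of the surrogate light chain list, had 0 to 6 reads per tumour. Vpreb1 had 2.3 reads in anti-PD-1 replicate 3 and 0 elsewhere.

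Markers of other tissues were high in the 2 tumours that held most V reads. The 9 adipocyte genes summed to 14076 CPM in IgG2a replicate 7 and 622 in replicate 3, against 90.2 to 264 CPM in the other 6 IgG2a tumours and 90.4 to 448 under anti-PD-1. The 5 erythroid genes summed to 24557 CPM in replicate 7 and 791 in replicate 3, against 37.9 to 219 in the other IgG2a tumours and 44.98 to 189 under anti-PD-1. The 8 skeletal muscle genes summed to 29563 CPM in replicate 3 and 7.56 in replicate 7, against 2.09 to 19.8 in the other IgG2a tumours and 2.24 to 185 under anti-PD-1. Of 10 lymph node genes, 7 were tested and 0 called, and their sum, 47.2 and 49.1 CPM in replicates 3 and 7, lay near the 24.9 to 47.3 of the other IgG2a tumours and within the 21.7 to 57.8 under anti-PD-1. Among them Ccl21a, a chemokine of lymphatic vessels and lymph node stroma, was at 12.5 and 5.47 CPM in replicates 3 and 7 and at most 1.76 CPM elsewhere, and Cxcl13, a chemokine that attracts B cells, was at 3.60 and 24.8 CPM and at most 1.13 CPM elsewhere. The sum of the 8 T cell genes was 33.1 and 18.2 CPM in replicates 3 and 7 and 12.4 to 46.1 CPM in the other IgG2a tumours. The part of fat, blood, muscle or lymphoid tissue in the V reads was not tested. IgG2a replicate 8, the tumour with the next most V reads, was at 264 CPM for adipocyte, 125 for erythroid and 3.09 for skeletal muscle genes, each within the range of the anti-PD-1 tumours.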

How the data were processed

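Tumour poly(A) RNA (RNA integrity above 5) was sequenced from non-directional libraries, per the labels' protocols, so a V segment and an antisense transcript cannot be told apart. Each deposited table lists transcripts with their estimated counts (some fractional), the authors' TPM and other columns for length, per the file headers. GRCm38, edgeR and limma are named in the submitters' processing notes, and the quantifier is not given in the sources used here. The estimated counts matched V transcripts of the germline, so hypermutated or junction reads may be missed, which was not tested.

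Transcripts were matched by identifier to GENCODE vM21 (114200 of 115088) and estimated counts summed per gene. Of 477 V values above 0, 4 were not whole within 0.001 (Igkv4-59 with Igkv4-70, and Igkv3-5 with Igkv3-10). A segment was detected at 10 reads. Genes passing filterByExpr (minimum count 10, minimum total 15) were rounded and tested with edgeR 4.0.16 (R 4.3.3, TMM, robust quasi-likelihood, Benjamini-Hochberg over all genes, threshold 0.05). Usage tests were exact permutations over 12870 assignments (1716 and 3003 for Igh and Igk at 10 reads), the smallest p being 0.000155 (0.000583 and 0.000333 at 10 reads), adjusted over 8. Checked alternatives were DESeq2 1.42.0, limma-voom (limma 3.58.1), other scaling, no filter, animal number range, the authors' TPM and omitted tumours. The edgeR step was tested on simulated data.

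Segments named are those with the highest mean share (6 Igh, 6 Igk, 3 Igl), the leader of each tumour, any called, and Igkv8-16, 29 in all, not all of them described. From other lists, constant genes and up to 4 genes of smallest p were named with fold changes, and others by their levels. The members and lists were chosen with earlier results of these data known. No amino acid or promoter sequence was used here.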

Additional observations from a re-analysis of the deposited data

Results flagged for a closer look

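A tumour lay far from the rest of its group in 17 of 35 sets of values examined. Chance flags about 1 in 20 groups of normally spread values, but that rate does not hold for the single segments below, which were chosen in part because they led a tumour, or for read numbers near 0. It need not hold for summed V reads either, which for Igh ran from 0.0734 to 64.2 CPM under IgG2a. In the IgG2a group, replicate 7 stood out in summed V reads with 64.2 CPM for Igh, 103 for Igk and 3.30 for Igl. It also stood out in single segments, with 3030 reads of Ighv1-47, 479 of Ighv1-53, 4373 of Igkv1-110 and 727 of Igkv3-2. IgG2a replicate 3 stood out with 432 reads of Igkv14-126 and 64 of Igkv14-111.

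Under anti-PD-1, replicate 6 stood out in the share of the leading segment, 100% for Igh (5 reads) and 84.6% for Igk (26 reads), in the 2.40 kappa segments expected in 10 reads, and in its 5 reads of Ighv6-3 and 22 of Igkv3-2. Replicate 3 stood out with 6 reads of Igkv14-126 and 1 of Ighv11-2, and replicate 8 with 1 read of Ighv1-47. A tumour with 1 read where the others have 0 is marked by the same measure, so the last 2 values carry little weight.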

How the results depend on the processing

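No usage measure passed the threshold under any alternative run, the lowest adjusted p being 0.0779. V reads limit every comparison: 13 of 16 tumours had at least 10 heavy chain V reads and 14 had 10 kappa V reads, most of them fewer than 100, and the size of difference that could have been found was not measured. With segments under 10 reads in a tumour set to 0, the sign turned for the Igh and Igk top share (29.7 and 35.8 percentage points, adjusted p 0.667 and 0.0808), for Igh segments at 10 reads (-1.85) and for the Igh and Igk distance (0.0639 and 0.0296). In that setting 1 anti-PD-1 tumour kept heavy chain reads. Without IgG2a replicates 3, 7 and 8, an alternative added after seeing the data, it turned for the Igh and Igk effective number (1.32 and 1.66), Igk segments at 10 reads (0.0193) and the Igk distance (0.00236). Thinning to 10 reads and the fit without both the filter and the 3 tumours were also added after seeing the data. The cause of these turns was not tested.

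Leaving out 1 tumour at a time gave differences of -16.7 to -1.95 (Igh top share), -10.2 to 1.34 (Igk top share), -2.08 to 0.0347 (Igh effective number), -1.77 to 0.949 (Igk effective number), 0.614 to 1.57 (Igh segments at 10 reads), -0.850 to 0.103 (Igk segments at 10 reads), -0.0326 to -0.00614 (Igh distance) and -0.0148 to 0.00330 (Igk distance). The turns came without IgG2a replicate 7 for the Igk top share, without IgG2a replicate 8 for both effective numbers, without anti-PD-1 replicate 6 for Igk segments and without IgG2a replicate 6 for the Igk distance. Summed V reads ranged from -1.63 to -0.78 (Igh), -1.68 to -0.74 (Igk) and -0.60 to -0.30 (Igl), each smallest in size without IgG2a replicate 7. With a pseudocount of 0.1 the differences were -2.27 (Igh), -1.67 (Igk) and -1.63 (Igl).

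A minimum of 3 reads gave 125 detected segments and a minimum of 1 gave 155, against 70 at 10. The V segments called were 1 by DESeq2 and 0 in every other fit. Some fits with a tumour left out let 1 segment, Igkv3-2, pass the filter, which was not called. Without the 3 tumours that stood apart Ighg2b was at 0.12 and Mzb1 at 0.23 (0.10 and 0.21 with no filter). No paired analysis was possible because the labels give animal numbers that groups do not share.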
